A study of Mus musculus with 5 samples.

Results

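Secreted Wnt antagonists hold the Wnt pathway in check outside the cell, and the Dact proteins act on it from inside. The genes described here are the secreted frizzled-related proteins Sfrp1, Sfrp2, Sfrp4 and Sfrp5, their relative Frzb, the dickkopf proteins Dkk1 and Dkk3, Wif1, and the intracellular Dact1 and Dact2. They were chosen as the non-control probes whose array symbol is 1 of these 10 names, which took 11 probes, 2 of them for Dact1 and 1 for each other gene, among 31896 gene symbols on the array. The set was selected on the log2 differences between the groups, as Sfrp2 and Dact2 were already known to read lower in EXO-HP. Differences of these genes between the groups are therefore given as a description, with no test.

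Wnt ligands are lipid-modified proteins that bind frizzled receptors and the co-receptors Lrp5 and Lrp6, which leads to the build-up of beta-catenin and to transcription with TCF/LEF factors. Frizzled-related proteins and Wif1 bind the ligands themselves, Dkk1 binds the co-receptors, and Dact proteins bind Dishevelled, the adaptor below frizzled. In pancreatic beta cells the pathway is known for roles in growth and in insulin secretion, with Tcf7l2 as the TCF factor most studied there.

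RNA came from 5 samples of MIN6 cells, an insulin-secreting line from a mouse insulinoma used as a model of beta cells, each on its own 1-colour Agilent array. In 3 samples (EXO-HP) the cells had been incubated with exosomes, small vesicles shed by cells, that were collected by ultracentrifugation from ex vivo muscle of high fat diet mice. In the other 2 (EXO-STD) the muscle was that of standard diet mice, so both groups had received muscle vesicles and no untreated cells are compared here. Vesicle dose, incubation time, and the strain and age of the mice are not given in the sources used here, nor whether the replicates were separate cultures. Spread between samples may thus be partly technical.

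EXO-HP replicate 1 and both EXO-STD replicates shared slide 1 and scan 1, and EXO-HP replicates 2 and 3 were on slide 2 and scan 2. Differences given below for slide 1, or with slide as a block, thus set EXO-HP replicate 1 alone against both EXO-STD replicates. Spots well above background made up 74.0%, 91.6% and 81.6% of those on EXO-HP replicates 1, 2 and 3, and 73.4% and 71.8% of those on EXO-STD replicates 1 and 2. In the dimmest 10% of tested probes, the median signal lay above the EXO-STD mean by 0.23, 1.53 and 0.74 (log2) on EXO-HP replicates 1, 2 and 3. A probe could be tested when well above background on 2 EXO-HP arrays alone. That rule favours higher EXO-HP values among dim probes, and its part in these 3 values was not tested. All 12 beta cell markers were well above background on every array. Markers of other cell types were well above background on all 5 arrays for 5 of 7 other islet hormone and regulator genes, 5 of 12 fibroblast, 8 of 14 skeletal muscle, 3 of 6 adipocyte, 3 of 6 endothelial and 5 of 6 macrophage genes. With limma, 0 of 31945 tested probes passed an adjusted p of 0.05 (0% called), the smallest adjusted p was 0.814, and 1787 probes had an unadjusted p under 0.05 (5.59%).

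Probes of the 2 genes with the highest signals among the 10, Dact1 and Dact2, and of Sfrp2, which like Dact2 read lower on every EXO-HP array, are shown first, since each value below is the binding of labelled cRNA to 1 such oligonucleotide, present as 1 spot per array. The Dact2 probe lies at chr17:14332893-14332952 on the minus strand and the Dact1 probe shown at chr12:72419790-72419849 on the plus strand. The Sfrp2 probe lies at chr3:83577864-83577923 on the plus strand, of which the first 30 bases are given. Coordinates follow the mm9 build used by the array design, which assigns each probe to a transcript of its gene, and exon annotation of that build was not used here.
Dact2 probe: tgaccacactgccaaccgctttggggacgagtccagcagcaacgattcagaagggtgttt
Dact1 probe: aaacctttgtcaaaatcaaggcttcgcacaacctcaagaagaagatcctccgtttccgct
Sfrp2 probe: tcggcatctaagtcttcaaacatttcgttg

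Of the 10 genes, 8 were detected in MIN6 cells, where a gene counts as detected if at least 2 arrays of the same group had it well above background, a rule met by 81.3% of all probes. Dact1, Dact2 and Sfrp5 were well above background on all 5 arrays, as were 68.4% of all probes. Sfrp2 was well above background on 2 of 3 EXO-HP and 2 of 2 EXO-STD arrays, and Sfrp4 on 2 of 3 EXO-HP and 1 of 2 EXO-STD arrays. Dkk1, Frzb and Wif1 were well above background on 2 of 3 EXO-HP arrays and on 0 of 2 EXO-STD arrays. Sfrp1 and Dkk3 were well above background on EXO-HP replicate 2 only, as were 9.65% of all probes, and counted as not detected. In all, 5 of the 10 genes had no EXO-STD array but some EXO-HP array well above background, as had 17.5% of all probes. Without EXO-HP replicate 2 the number detected was 5, and without EXO-HP replicate 3 it was 4.

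Signals are given below as log2 values relative to the 75th percentile of the same array, so that 0 is that percentile. Different probes bind with different strength, and their signals are not compared with each other as transcript levels.

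**Figure D1:**
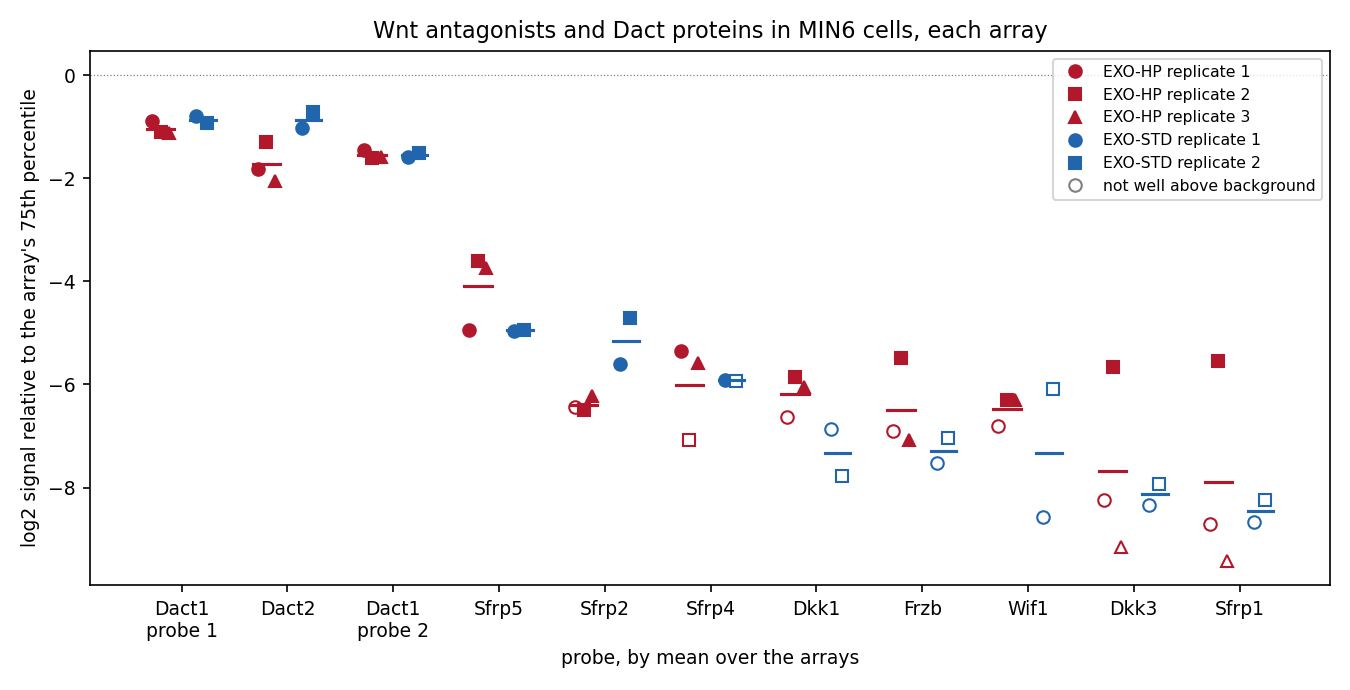
Log2 signal relative to the array's 75th percentile (vertical axis) of the 11 probes (horizontal axis) on each EXO-HP (red) and EXO-STD (blue) array, with group means as bars and open symbols where a spot was not well above background. Dact1 and Dact2 lie near the top on all arrays, all EXO-HP symbols of Dact2 and Sfrp2 lie below their EXO-STD symbols, and EXO-HP replicate 2 alone is high for Dkk3 and Sfrp1.

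Among the Dact genes, Dact2 was lower in EXO-HP, while the groups overlapped for Dact1. Dact2, a Dishevelled-binding protein that also dampens TGF-beta and Nodal signalling in vertebrate embryos, read -1.82, -1.30 and -2.05 on EXO-HP replicates 1, 2 and 3, against -1.02 and -0.71 on EXO-STD replicates 1 and 2. Every EXO-HP array lay below both EXO-STD arrays. The means were -1.73 ± 0.38 (SD, n = 3) in EXO-HP and -0.87 ± 0.22 (SD, n = 2) in EXO-STD. The log2 difference was -0.86 ± 0.29 (SE), a 1.81-fold lower mean. On slide 1 alone it was -0.95, and without EXO-HP replicate 2, the closest of the EXO-HP arrays to EXO-STD, it was -1.07.

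Dact1, the founding member of the family, was measured by a pair of probes. The brighter one, at chr12:72420453-72420512, read -0.89, -1.11 and -1.13 on EXO-HP replicates 1, 2 and 3, against -0.80 and -0.93 on EXO-STD replicates 1 and 2. EXO-HP replicate 1 lay between the EXO-STD arrays, so the groups overlapped, and the log2 difference was -0.17 ± 0.20 (SE). The other probe, whose sequence is given above, read -1.46, -1.60 and -1.59 in EXO-HP, against -1.60 and -1.51 in EXO-STD. Its groups overlapped too, with a log2 difference of 0.0047 ± 0.19 (SE). This probe's sign turned with the scaling, as its difference was -0.17 when arrays were scaled to their medians. With that scaling every EXO-HP array lay below both EXO-STD arrays for both Dact1 probes, the brighter at -0.35. The brighter probe's groups also did not overlap with quantile normalisation, at -0.21. Dact3, the remaining family member, had a log2 difference of 0.12 ± 0.29 (SE).

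The frizzled-related proteins differed in direction. Sfrp2, which carries a frizzled-like cysteine-rich domain that binds Wnt ligands, read -6.45, -6.50 and -6.23 on EXO-HP replicates 1, 2 and 3, against -5.60 and -4.70 on EXO-STD replicates 1 and 2. All 3 EXO-HP arrays were lower than both EXO-STD arrays, and the EXO-STD arrays were farther from each other than the EXO-HP arrays were. The means were -6.39 ± 0.14 (SD, n = 3) in EXO-HP and -5.15 ± 0.64 (SD, n = 2) in EXO-STD, a log2 difference of -1.24 ± 0.31 (SE) or a 2.36-fold lower mean. The lowest signals well above background on EXO-HP replicates 1, 2 and 3 were -6.52, -7.13 and -7.21. Sfrp2 was not well above background on EXO-HP replicate 1, so this fold is one near the detection floor. Leaving out EXO-STD replicate 2 gave -0.79, and leaving out EXO-STD replicate 1 gave -1.69. On slide 1 alone it was -1.29, and it was -0.60 with normexp background correction and quantile normalisation together, and -1.83 with quantile normalisation alone.

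Sfrp5, known in mice as an inhibitor of Wnt5a released by fat tissue, read -4.94, -3.61 and -3.73 on EXO-HP replicates 1, 2 and 3, against -4.97 and -4.94 on EXO-STD replicates 1 and 2. EXO-HP replicates 2 and 3 were higher, while EXO-HP replicate 1 lay barely above EXO-STD replicate 2. The log2 difference was 0.86 ± 0.44 (SE), with a mean of -4.09 ± 0.73 (SD, n = 3) in EXO-HP and -4.95 ± 0.02 (SD, n = 2) in EXO-STD. Within slide 1 it was 0.02, so the higher values were those of slide 2, and the part of the slide in them was not tested.

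Sfrp4, a frizzled-related protein described in human islets as an inhibitor of insulin secretion, read -5.35, -7.07 and -5.58 on EXO-HP replicates 1, 2 and 3, against -5.91 and -5.93 on EXO-STD replicates 1 and 2. The EXO-HP arrays lay on both sides of EXO-STD, with replicate 2 the lowest. The log2 difference was -0.08 ± 0.54 (SE), and it was 0.57 within slide 1 and 0.45 without EXO-HP replicate 2. Frzb, also called Sfrp3, read -6.91, -5.48 and -7.08 on EXO-HP replicates 1, 2 and 3, against -7.53 and -7.04 on EXO-STD replicates 1 and 2, where it was not well above background. EXO-HP replicate 2 was the highest, and EXO-HP replicate 3 lay between the EXO-STD arrays. Sfrp1 read -8.71, -5.55 and -9.42 in EXO-HP, against -8.67 and -8.25 in EXO-STD. EXO-HP replicate 2 was the highest, and the other 4 arrays are not ranked, as none was well above background and 3 of them carry surrogate values. No fold is given for Frzb or Sfrp1, because the EXO-HP mean did not exceed the EXO-STD bound. That bound is the mean over the EXO-STD arrays of the probe's own signal or the array's lowest signal well above background, whichever is higher.

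Of the remaining secreted antagonists, only Dkk1 had groups that did not overlap. Dkk1, which blocks Lrp5 and Lrp6 and is itself induced by beta-catenin, read -6.63, -5.85 and -6.04 on EXO-HP replicates 1, 2 and 3, against -6.86 and -7.78 on EXO-STD replicates 1 and 2. All 3 EXO-HP arrays read higher, and Dkk1 was well above background on 2 of 3 EXO-HP arrays and on 0 of 2 EXO-STD arrays. The fold was therefore taken against EXO-STD signals raised to each array's lowest signal well above background, and was 1.10-fold higher in EXO-HP. It is not a strict lower limit, as the EXO-HP mean includes replicate 1, which was not well above background. The means of the signals were -6.18 ± 0.40 (SD, n = 3) in EXO-HP and -7.32 ± 0.65 (SD, n = 2) in EXO-STD. The log2 difference of the signals was 1.14, and 0.68 without EXO-STD replicate 2, whose Dkk1 reading of -7.78 is a surrogate value. Quantile normalisation gave 0.44, with 0.01 for normexp and quantile normalisation together and 0.03 for the deposited value table, and the groups overlapped in these 3 settings. The 1.10-fold value was computed for the 75th percentile scaling only.

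Dkk3, a divergent dickkopf protein, read -8.24, -5.66 and -9.15 on EXO-HP replicates 1, 2 and 3, against -8.33 and -7.93 on EXO-STD replicates 1 and 2. As for Sfrp1, EXO-HP replicate 2 was the highest, and the other 4 arrays, all with surrogate values, were not well above background. Wif1, which binds Wnt ligands through a domain of its own, read -6.81, -6.30 and -6.31 in EXO-HP, against -8.58 and -6.09 in EXO-STD. EXO-STD replicate 2 was the highest array and EXO-STD replicate 1, with a surrogate value, the lowest. Its signal difference changed sign without EXO-STD replicate 1, and no fold is given for Dkk3 or Wif1 for the same reason as for Frzb.

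The dim secreted antagonists can be set beside the negative control spots, of which each array has 153. The share of all spots whose mean signal minus local background was above the 95th percentile of these controls was 83.5%, 98.1% and 89.0% on EXO-HP replicates 1, 2 and 3, and 82.2% and 81.3% on EXO-STD replicates 1 and 2. On EXO-HP replicate 2 that percentile was 23.5 intensity units, and Sfrp1 stood at 74.8, Dkk3 at 59.6 and Frzb at 78.4. On EXO-STD replicate 2 it was 51.3, and Sfrp1 stood at 36.8, Dkk3 at 36.1 and Frzb at 58.3. On this measure Dkk3 was above the controls on 1 of 3 EXO-HP and 0 of 2 EXO-STD arrays, and Sfrp1 on 2 of 3 EXO-HP and 1 of 2 EXO-STD arrays. Fibroblast and mesenchyme markers, which mark cells that often express these antagonists, were well above background for 5, 10 and 8 of 12 genes on EXO-HP replicates 1, 2 and 3, and for 6 and 5 on EXO-STD replicates 1 and 2. Their summed signal, as a multiple of each array's 75th percentile, was 0.259 to 0.476 in EXO-HP and 0.256 to 0.268 in EXO-STD, while Pdgfra and Postn were not well above background on any array. Skeletal muscle markers were well above background for 12, 12 and 11 of 14 genes on EXO-HP replicates 1, 2 and 3, and for 10 and 8 on EXO-STD replicates 1 and 2, and each was so on at least 1 array. Their summed signal was 1.36 to 3.25 in EXO-HP, highest on replicate 1, and 1.10 to 1.45 in EXO-STD. All 11 tested muscle markers had a higher mean in EXO-HP (median log2 difference 0.51), where 37.6% of all genes tested were lower. The number higher was 8 with median scaling, 7 with quantile normalisation and 10 within slide 1. With limma 0 passed the adjusted threshold and 2 had an unadjusted p under 0.05, of which Mylpf passed the filter through EXO-HP alone. Higher too were 5 of 5 tested macrophage, 3 of 4 adipocyte, 4 of 6 endothelial, 6 of 8 fibroblast and 10 of 12 beta cell markers. No direction is read from these counts. The part of dim-signal level and of these marker lists in the values of the dim antagonists was not tested.

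**Figure D2:**
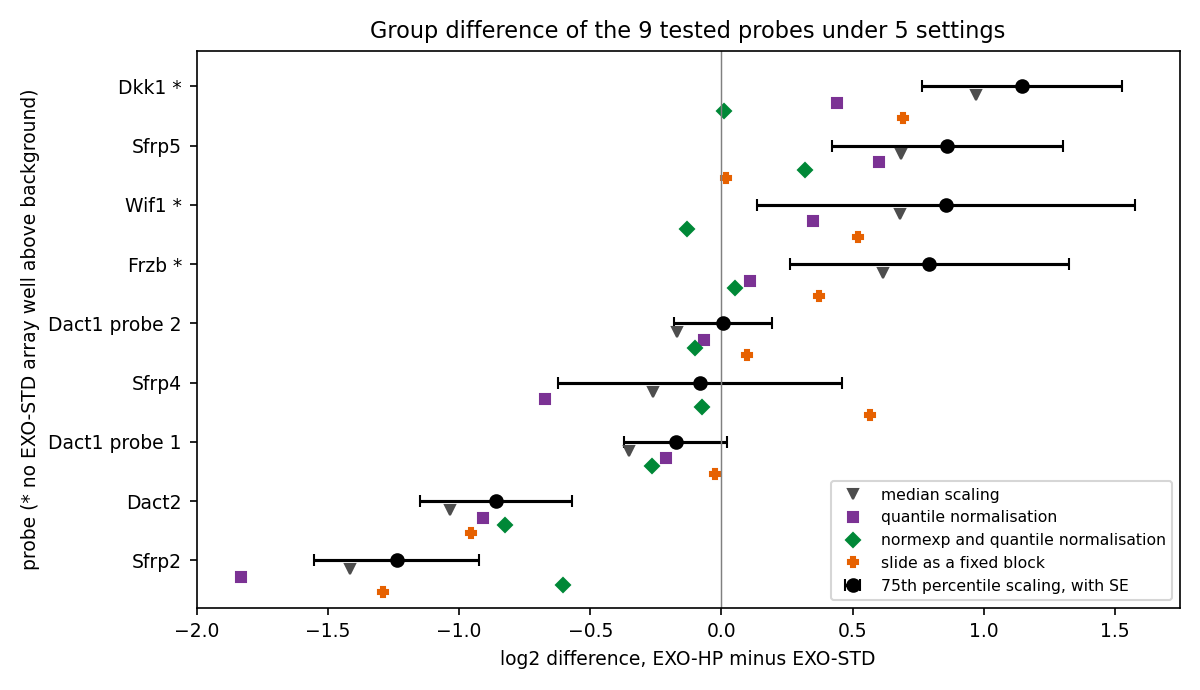
Log2 difference, EXO-HP minus EXO-STD (horizontal axis), of the 9 tested probes with the SE (black), beside the same under median scaling, quantile normalisation, normexp together with quantile normalisation, and slide as a block; an asterisk marks genes not well above background on either EXO-STD array. Sfrp2 and Dact2 lie left of 0 under every setting drawn, whereas Dkk1 reaches 0.01 under normexp with quantile normalisation and Sfrp5 0.02 with slide as a block.

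Set side by side by their brightest probe, 5 of the 8 detected genes were well above background on some array of both groups, and of these Sfrp2, Sfrp4, Dact1 and Dact2 had a lower mean in EXO-HP and Sfrp5 a higher one. The other 3, Dkk1, Frzb and Wif1, were detected through EXO-HP alone, a rule that favours higher signals there, so their directions are not counted. Over all genes tested 37.6% were lower, and the median of all tested probes was 0.07, which median scaling moved to -0.10. Groups did not overlap downward for 2 of the 9 tested probes (Sfrp2 and Dact2), as for 2.76% of all tested probes. They did not overlap upward for 2 (Sfrp5 and Dkk1), as for 15.1%. This comparison chose the genes, so nothing is read from these counts. That split of all probes, 4815 upward and 881 downward, was 2465 and 3532 with median scaling and 2459 and 2007 with quantile normalisation. Sfrp2 was below in all 7 settings with 5 arrays that gave it a value, and Dact2 in all 8, whereas Sfrp5 was above in 3 of 8 and Dkk1 in 4 of 7. Settings that changed only the filter repeat a probe's main values and are not separate outcomes. Sfrp5 was above only in the main setting and in those that repeat it.

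Pattern likeness over the 5 arrays was measured as the Euclidean distance between log2 values centred on each gene's mean, among 25919 other genes. The genes closest to Dact2 were Nlrp9a (0.29), 2610306M01Rik (0.32) and Pigt (0.34), against a median distance of 1.30. Pigt, a subunit of the enzyme that attaches GPI anchors, had a log2 difference of -0.81. The genes closest to the brighter Dact1 probe were Mthfd2 (0.03), Anapc4 (0.04) and Taf12 (0.04), against a median of 0.68. Their log2 differences were -0.17, -0.19 and -0.18, beside -0.17 for this Dact1 probe. The likeness is a description only.

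The promoters of Sfrp2 and Dact2 are given because these were the genes whose groups did not overlap downward. They are the 250 bases before the transcript start on GRCm38.p6 in the RefSeq table, which matched 7 of the 10 genes: Sfrp2, Sfrp5, Frzb, Wif1, Dact1, Dact2 and Dkk1. Capitals mark CpG dinucleotides, 16 in Sfrp2 (chr3:83766071-83766320, plus strand) and 18 in Dact2 (chr17:14203832-14204081, minus strand), against a median of 6 over 32851 windows. Of all windows, 74.6% had fewer than Sfrp2 and 78.3% fewer than Dact2. Dact1 had 41, more than 98.9% of windows, and Dkk1 had 6. Frizzled-related protein genes are known for such CpG-rich promoters, which are often methylated in tumours, and methylation was not measured here.
Sfrp2 promoter: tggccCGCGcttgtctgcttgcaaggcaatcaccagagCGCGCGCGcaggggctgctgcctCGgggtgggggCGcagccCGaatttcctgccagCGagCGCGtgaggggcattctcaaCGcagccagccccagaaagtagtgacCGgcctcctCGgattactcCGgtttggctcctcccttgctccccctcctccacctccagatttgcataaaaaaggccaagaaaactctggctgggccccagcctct
Dact2 promoter: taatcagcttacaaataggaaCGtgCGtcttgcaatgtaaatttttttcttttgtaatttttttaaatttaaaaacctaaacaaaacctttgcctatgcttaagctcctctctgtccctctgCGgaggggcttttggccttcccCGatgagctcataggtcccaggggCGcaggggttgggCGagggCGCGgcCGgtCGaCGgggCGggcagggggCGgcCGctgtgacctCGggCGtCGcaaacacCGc

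A TCF/LEF motif, spelled CTTTGAA or CTTTGAT and searched on both strands, was found in 7.5% of all windows and in 1 of the 7 windows of these genes. It was that of Dkk1 (chr19:30549497-30549746, minus strand), in capitals here, where it starts 117 bases before the transcript start. A match describes letters and not binding, and the Dkk1 signal was at or near background on these arrays.
Dkk1 promoter: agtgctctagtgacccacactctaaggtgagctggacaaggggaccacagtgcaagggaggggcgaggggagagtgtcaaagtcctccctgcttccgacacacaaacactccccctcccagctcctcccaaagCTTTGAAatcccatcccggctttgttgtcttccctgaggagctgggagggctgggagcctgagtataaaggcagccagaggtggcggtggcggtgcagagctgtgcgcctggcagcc

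The rest of the pathway was examined through lists of 118 other Wnt genes, all on the array, of which 101 were tested. With limma, 0 of 101 passed the adjusted threshold, 67 were higher and 34 lower in EXO-HP, and their median log2 difference of 0.06 stood beside 0.07 for all genes tested. The number lower was 65 with median scaling, so no direction is given for the lists. Of the 101, 7 had an unadjusted p under 0.05 (6.93%), all 7 higher, against 5.61% of all genes that were higher at that p. Groups did not overlap for 17 upward (16.8%, against 15.1% of all genes) and 5 downward (4.95%, against 2.81%). These shares lie near those of all genes.

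**Figure D3:**
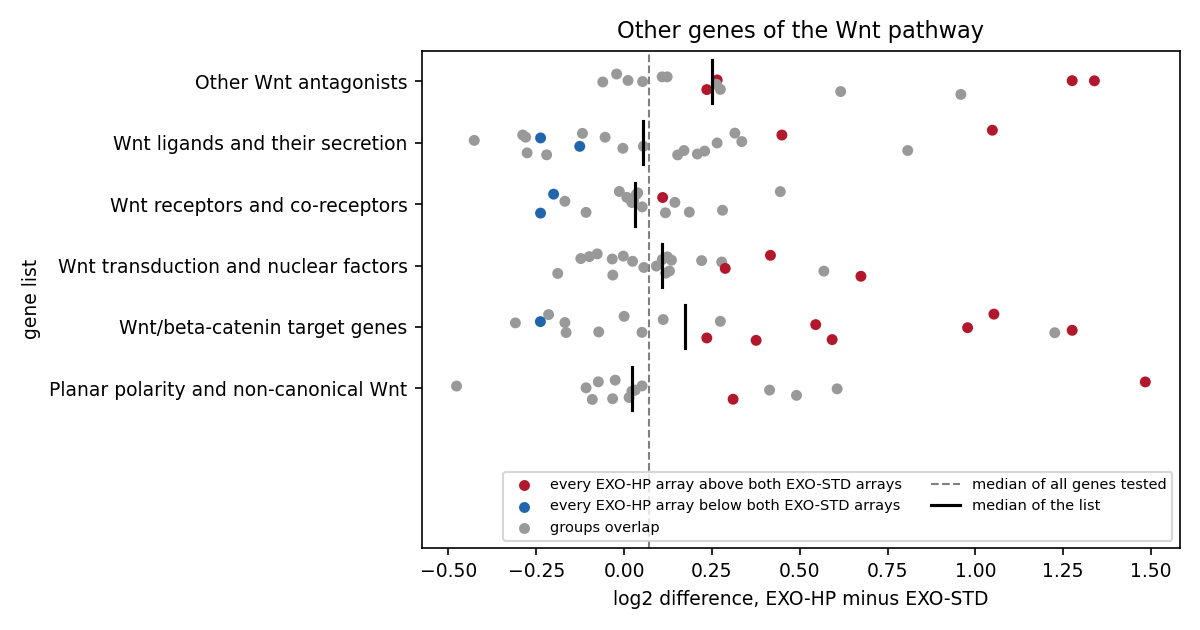
Log2 difference, EXO-HP minus EXO-STD (horizontal axis), of each tested gene in 6 lists of the Wnt pathway, coloured by whether every EXO-HP array lay above (red) or below (blue) both EXO-STD arrays. Black bars are list medians, which run from 0.02 to 0.25, and the dashed line is the median of all genes tested, 0.07.

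Among 14 tested antagonists outside the named set, 12 were higher and 2 lower (median 0.25), where 37.6% of all genes tested were lower. Some, such as Sost, passed the filter through EXO-HP alone, so no direction is read from this count. Znrf3, a ubiquitin ligase that removes frizzled receptors from the surface, had a log2 difference of 1.28 ± 0.43 (SE), with -4.04, -3.37 and -4.10 on EXO-HP replicates 1, 2 and 3, against -4.52 and -5.71 on EXO-STD replicates 1 and 2. Its groups did not overlap, it did not pass (limma adjusted p = 0.886), and without EXO-STD replicate 2 it stood at 0.68. Sost, the bone-derived Lrp5 and Lrp6 inhibitor sclerostin, had no array well above background in EXO-STD and no fold, and its signal difference was 0.63 with quantile normalisation and -0.04 with normexp added to it.

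Of 21 ligand and ligand-secretion genes, 11 were higher and 10 lower (median 0.06). Wnt9b, a ligand of kidney development, had 1.05 ± 0.40 (SE; limma adjusted p = 0.890) and 0.34 within slide 1, with every EXO-HP array above EXO-STD. Of 18 receptor genes, 13 were higher and 5 lower (median 0.03). Ryk, an atypical Wnt receptor, had -0.24 ± 0.18 (SE) and Fzd1, a frizzled, -0.20 ± 0.19 (SE), and for both every EXO-HP array lay below EXO-STD.

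Of 21 transduction and nuclear genes, 14 were higher and 7 lower (median 0.11). Ctnnb1, beta-catenin itself, had -0.10 ± 0.20 (SE), which was 0.02 with normexp and quantile normalisation together. Tcf7l2 had 0.29 ± 0.21 (SE), and 0.11 with median scaling. Bcl9l, a beta-catenin co-activator, had 0.67 ± 0.22 (SE; limma adjusted p = 0.886). For both Tcf7l2 and Bcl9l every EXO-HP array lay above EXO-STD. Of 18 target genes, 12 were higher and 6 lower (median 0.17), including Rnf43, Znrf3, Notum and Lgr5, which other lists hold too. Axin2, the negative feedback regulator most used as a readout of the pathway, read -4.10, -3.81 and -3.45 on EXO-HP replicates 1, 2 and 3, against -3.55 and -3.60 on EXO-STD replicates 1 and 2. Its groups overlapped, with a log2 difference of -0.21 ± 0.25 (SE) and a second probe at 0.60.

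Mmp7, a matrix metalloproteinase, had the smallest p among the targets, with 0.98 ± 0.24 (SE; limma adjusted p = 0.884). It read -4.49, -4.21 and -4.19 on EXO-HP replicates 1, 2 and 3, against -5.49 and -5.06 on EXO-STD replicates 1 and 2, and its difference was 0.61 with quantile normalisation and 0.29 with normexp added to it. Bmp4, a ligand of the BMP family, had 1.05 ± 0.35 (SE; limma adjusted p = 0.886), and 0.46 within slide 1. For both Mmp7 and Bmp4 every EXO-HP array lay above EXO-STD. Of 15 planar polarity genes, 9 were higher and 6 lower (median 0.02). The formin-family gene Daam2, not well above background in EXO-STD, had no fold.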

How the data were processed

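Per the file headers, the deposited scanner tables hold spot intensity values made by Feature Extraction version 10.7.3.1, while the tools in the submitters' processing notes are limma and Agilent Feature Extraction 9.1. Per the file headers, the processed intensity is background-subtracted and detrended within an array, and spots near background carry a surrogate value. The other deposited flags, per the file headers, mark spots well above background, outliers and saturation (0 spots). The deposited value table holds log2 values with a median of 7.93 on each array, whose ranks equalled those of mean signal minus local background (Spearman rho = 1), with no centring of genes. All its columns were matched to samples.

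Outlier spots were dropped, log2 processed signals were averaged over the spots of a probe, and the 75th percentile over probes was subtracted array by array. Of 39429 probes, 110 without a usable spot on some array and 7374 that reached well above background on fewer than 2 arrays in both groups were set aside, and 31945 were tested with limma 3.58.1 in R 4.3.3 (EXO-HP minus EXO-STD, no covariates, 3 residual and 2.59 prior degrees of freedom), adjusted by Benjamini-Hochberg. The fit was tested on simulated data with independent noise and no slide effect or detection floor, so that test does not cover either of these. The number of arrays limits the precision, as a 2-sided exact test of 3 against 2 arrays cannot go below p = 0.2 and the median SE of a log2 difference was 0.27. A fold against a group with no array well above background was taken after raising that group. On each array of the dim group the probe's signal was raised to at least the lowest one well above background. Some spots not well above background read higher than that level, so the bound is not strict. Symbols were those of the array, updated by RefSeq accession (GRCm38.p6, names only) for the lists, and the brightest tested probe stood for a gene.

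The members and lists were chosen with earlier results of these data known. Named were all 10 genes and, of each Wnt list, genes with an unadjusted p under 0.05 or else the 2 smallest, with Axin2, Ctnnb1 and Tcf7l2 in every case. Dact3 and the genes shared between lists were named after their values were seen. Alternatives changed the scaling, background correction (normexp, run only together with quantile normalisation), value table, filter, slide, replicate number, outlier spots and each array.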

Additional observations from a re-analysis of the deposited data

How the results depend on the processing

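With limma the count of probes past adjusted p 0.05 was 0 under every alternative except without EXO-STD replicate 1, where it was 3 (leave-one-out range 0 to 3), none of them a probe of the genes described. Of the 8 detected genes, 4 had a lower signal in EXO-HP. Dkk1, Frzb and Wif1 were detected through EXO-HP alone, a rule that favours higher signals there, so nothing is read from this count. The count was 5 with normexp and quantile normalisation together and in the deposited value table, and 3 with slide as a block. It was 2 of 3 when probes had to be well above background on all 5 arrays, which leaves fewer genes. Without EXO-STD replicates 1 and 2 in turn it was 5 and 4 of 8. Without EXO-HP replicates 1, 2 and 3 in turn it was 3 of 7, 3 of 5 and 3 of 4. It was 4 in the other alternatives. Detection counted 3 genes on all 5 arrays, 9 by negative control spots (chosen after seeing the data) and 4 to 8 when 1 array was left out. The other Wnt genes that were lower numbered 34, against 65 with median scaling, 49 with quantile normalisation, 52 with normexp and quantile normalisation together and 52 in the deposited value table; the cause was not tested. Dact2 ranged from -1.07 to -0.70 over 14 alternatives and Sfrp2 from -1.83 to -0.60 over 13, both lower in each; Sfrp4, Wif1 and the dimmer Dact1 probe changed sign in some. Of 113 alternative values of the 9 probes, 96 moved by less than the spread between replicates and 17 by more. Alternatives that changed only the filter left a probe's difference as it was and are among the 96. Dim genes that missed the filter without an array have no value there.

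Replicate numbers are shared by the groups, but nothing says that they pair samples, and the deviations of same-numbered arrays correlated at 0.03 and -0.06. With the replicate block the count of calls was 0, Dact2 had -0.70 and Sfrp2 -1.32, 4 genes were lower, and the block changed no call.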
